A study of Mus musculus with 48 samples.

Results

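The striatum of mice labelled Msh3-/- was compared with that of wild type (WT) mice, with no Q140 allele in either group. The members are the 16 RNA-seq libraries of those 2 genotypes, 8 Msh3-/- and 8 WT mice with 4 of each sex per genotype, chosen by the genotype label out of the 48 libraries of the series. All mice are on the C57BL/6 background by their labels, and each library is the corpus striatum of 1 mouse. Their age is uncertain, since the age label reads 12 months and the extraction protocol speaks of dissection at 6 months. The sources used here do not give the structure of the Msh3 null allele, the line it came from or how much flanking chromosome came along with it. The other genotypes of the series were Msh3+/- and the Huntington's disease knock-in Q140, alone or crossed with either Msh3 genotype, with 8 mice each. All Q140 mice, crossed or not, are heterozygous for the knock-in by their labels. The comparison asks what loss of both Msh3 alleles does to striatal transcription when no expanded Htt repeat is present.

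Msh3 is a DNA mismatch repair protein that acts in a complex which recognises insertion and deletion loops and hands them on for repair. In Huntington's disease models it drives the somatic lengthening of CAG repeats, which is most marked in striatal spiny projection neurons.

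Counts per library were 41.2 M to 51.4 M in Msh3-/- mice and 41.6 M to 60.9 M in WT mice (M, 1e6 counts), and Xist and Ddx3y counts matched the labelled sex in 16 of 16 libraries. Of the 48 libraries in the fit 47 matched, and the exception was Q140 female 1, with 71 Xist counts and 1 Ddx3y count. Results on the Q140 background that move without it are given with both values. The share of mitochondrial counts averaged 6.93% ± 0.733 in Msh3-/- mice and 6.99% ± 0.686 in WT mice (SD, n = 8 each; 2-sided exact permutation test, p = 0.844, adjusted p = 0.991 over 4 library measures). The Msh3-/- mice female 1 and male 1 stood apart from the other 14 libraries on the first principal component of the residuals, at -16.8 and -19.4 where the others lay between -5.44 and 10.6. The WT mice female 3 and female 4 bear mouse names with other prefixes than the other 14 libraries of these 2 genotypes. Among the Q140 mice, female 4 and male 4 also bear another prefix, and no fit left them out. The sources used here do not say what a prefix stands for. Calls that move without those 2 Msh3-/- mice or those 2 WT mice are given with both values, and so are some estimates.

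Loss of Msh3 by label came with very few changes. Of 19714 genes tested, 9 (0.0457%) passed an adjusted p of 0.05 in Msh3-/- minus WT, with 2 higher and 7 lower (edgeR's quasi-likelihood test, Benjamini-Hochberg adjustment over all genes tested). All 9 lie on chromosome 13, where Msh3 itself sits, and make up 1.31% of the 688 genes tested there. Msh3 and F2r were higher in Msh3-/- mice and Rasgrf2, Ankrd34b, Cmya5, AW495222, Sv2c, Col4a3bp and Map1b were lower. In every one of the 9 genes, all 8 Msh3-/- mice differed from the WT mean in the direction of the call. The genes and directions were taken from these same mice, so this is no separate support for the calls. Outside chromosome 13 the same test called 0 of 19026 genes (0%).

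The targeted gene came first. Msh3 (ENSMUSG00000014850; GRCm38 chr13:92211872-92355003, minus strand) stood at 118, 123 and 126 counts per 1e6 (CPM, with library totals scaled by TMM; lowest, median and highest mouse) in Msh3-/- mice, against 26.4, 29.3 and 30.9 CPM in WT mice. The lowest Msh3-/- mouse was far above the highest WT mouse, so the groups did not overlap. The means were 122 ± 3.10 CPM in Msh3-/- mice and 29.0 ± 1.61 CPM in WT mice (SD, n = 8 each), a log2 fold change of 2.08 (95% interval 2.01 to 2.15; adjusted p = 5.17e-45), or 4.22-fold. Per length, the authors' deposited FPKM were 10.7 ± 0.313 in Msh3-/- mice and 2.51 ± 0.143 in WT mice. The gene-level count therefore went up in the mice labelled null, opposite to a loss of transcript. A gene-level count says nothing of which exons were read, so it separates the genotypes but checks neither the deletion nor the protein, and Msh3-/- is used here as the label only. The Msh3+/- mice were between the groups, with 73.9 ± 1.56 CPM in Msh3+/- mice (SD, n = 8).

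The 300-base reference windows around the starts of Msh3, Rasgrf2 and Cmya5 are shown because these protein-coding genes had the largest of the 9 log2 fold changes. They are RefSeq letters of GRCm38.p6, 250 bases before to 50 bases after each start, given 5′ to 3′ on the gene's strand, and were not read from these mice. Capitals mark GGGCGG or its reverse complement CCGCCC, the core of a GC box to which Sp1-type factors bind. The Msh3 window (chr13:92354954-92355253, minus strand) holds it 4 times, in near copies of 1 repeated stretch, the Cmya5 window (chr13:93144675-93144974, minus strand) holds it once, and the Rasgrf2 window (chr13:92131779-92132078, minus strand) has 0 matches.
Msh3: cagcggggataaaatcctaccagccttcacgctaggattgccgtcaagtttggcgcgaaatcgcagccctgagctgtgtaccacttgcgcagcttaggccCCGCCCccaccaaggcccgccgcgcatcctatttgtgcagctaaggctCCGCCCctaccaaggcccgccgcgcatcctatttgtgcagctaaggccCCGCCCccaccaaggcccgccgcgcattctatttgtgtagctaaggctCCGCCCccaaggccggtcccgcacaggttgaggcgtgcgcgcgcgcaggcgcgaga
Rasgrf2: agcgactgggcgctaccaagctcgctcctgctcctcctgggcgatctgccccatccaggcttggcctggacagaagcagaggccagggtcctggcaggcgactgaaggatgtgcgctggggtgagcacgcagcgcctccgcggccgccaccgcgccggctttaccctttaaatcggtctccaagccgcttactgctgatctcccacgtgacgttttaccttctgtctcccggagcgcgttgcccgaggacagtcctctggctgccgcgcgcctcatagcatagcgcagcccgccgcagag
Cmya5: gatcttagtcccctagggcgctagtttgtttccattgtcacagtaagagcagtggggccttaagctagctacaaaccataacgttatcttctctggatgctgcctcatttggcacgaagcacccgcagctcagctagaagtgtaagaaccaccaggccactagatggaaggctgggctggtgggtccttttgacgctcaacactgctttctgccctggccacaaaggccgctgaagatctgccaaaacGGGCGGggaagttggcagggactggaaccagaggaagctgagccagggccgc
Of the 9 genes, 8 had a window in the RefSeq table and 6 of these held the motif, against 35.7% of the 32851 windows of the table that were used. A match is a run of letters and not a bound site, and the deposited counts do not bear on binding.

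Of the 4 genes called within 2 Mb of Msh3, all were lower in Msh3-/- mice. Rasgrf2, a calcium-responsive exchange factor that activates Ras and Rac in neurons, lies 0.0802 Mb away. It stood at 12.6, 24.1 and 29.4 CPM in Msh3-/- mice (lowest, median, highest) and at 47.5, 59.15 and 68.5 CPM in WT mice. The groups did not overlap, although the spread was wide, with female 2 as the lowest of the Msh3-/- mice. The means were 23.4 ± 5.34 CPM in Msh3-/- mice and 58.3 ± 9.22 CPM in WT mice (SD, n = 8 each), a log2 fold change of -1.31 (95% interval -1.57 to -1.06; adjusted p = 4.985e-09), which is the largest fall of the 9 genes.

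Cmya5 encodes myospryn, a large scaffold protein known best from striated muscle, and lies 0.6857 Mb from Msh3. It stood at 7.46, 8.83 and 9.43 CPM in Msh3-/- mice and at 15.7, 17.0 and 17.9 CPM in WT mice. Every Msh3-/- mouse was well below every WT mouse. The means of 8.62 ± 0.769 CPM in Msh3-/- mice and 16.8 ± 0.703 CPM in WT mice gave a log2 fold change of -0.96 (95% interval -1.099 to -0.82; adjusted p = 2.87e-15).

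AW495222, annotated as an antisense RNA gene, lies 1.3512 Mb from Msh3 and inside Dmgdh, which runs on the opposite strand and was too low to be tested. It rested on few counts, 275 over the 8 Msh3-/- libraries and 666 over the 8 WT libraries. Its CPM were 0.5205, 0.825 and 0.980 in Msh3-/- mice and 1.34, 1.80 and 2.09 in WT mice, and the groups did not overlap. The log2 fold change was -1.17 (95% interval -1.46 to -0.87; adjusted p = 6.72e-07). The sources used here do not state the strand setting of the counting, so reads of AW495222 and Dmgdh cannot be told apart with certainty.

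Ankrd34b, an ankyrin repeat gene 0.0709 Mb from Msh3 on the other side from Rasgrf2, stood at 19.3, 21.7 and 25.6 CPM in Msh3-/- mice and at 24.9, 27.85 and 30.8 CPM in WT mice. The groups overlapped, since Msh3-/- female 1, at 25.6 CPM, was above the lowest WT mouse. The means were 21.9 ± 2.46 CPM in Msh3-/- mice and 27.8 ± 1.95 CPM in WT mice (log2 fold change -0.34, 95% interval -0.46 to -0.23; adjusted p = 0.00022). It shares 1329 bases with the antisense gene C030017D09Rik, whose own log2 fold change was -0.27 (95% interval -0.86 to 0.32; adjusted p = 0.899).

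The other 4 called genes lay at higher coordinates, between 3.2468 and 7.0664 Mb from Msh3. F2r, the thrombin receptor PAR1, was the other gene that rose. It stood at 6.00, 6.802 and 8.00 CPM in Msh3-/- mice and at 3.06, 3.74 and 4.26 CPM in WT mice, with no overlap. The means of 6.92 ± 0.785 CPM in Msh3-/- mice and 3.73 ± 0.412 CPM in WT mice gave a log2 fold change of 0.89 (95% interval 0.70 to 1.09; adjusted p = 9.18e-09).

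Sv2c encodes a synaptic vesicle glycoprotein that is abundant in the basal ganglia. It stood at 386, 413 and 482 CPM in Msh3-/- mice and at 453, 499.8 and 557 CPM in WT mice. The ranges overlapped only through Msh3-/- male 1, at 482 CPM, with 417 CPM as the next highest Msh3-/- mouse. The log2 fold change was -0.27 (95% interval -0.35 to -0.18; adjusted p = 0.000202). It was -0.296 without that mouse, the lower end of a range of -0.296 to -0.24 over the 16 omissions of a single library.

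Col4a3bp, which encodes the ceramide transfer protein, stood at 70.85, 77.1 and 81.0 CPM in Msh3-/- mice and at 84.9, 87.9 and 91.6 CPM in WT mice. The change was small, but the groups did not overlap. Its log2 fold change of -0.20 (95% interval -0.26 to -0.14; adjusted p = 7.66e-05) amounts to 0.870 times the WT level.

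Map1b, a microtubule-associated protein of growing axons, was the most abundant per length of the 9 genes, with FPKM of 89.0 ± 3.61 in Msh3-/- mice and 102 ± 7.08 in WT mice. It stood at 992.5, 1064 and 1140 CPM in Msh3-/- mice and at 1115, 1249 and 1416 CPM in WT mice, and the ranges overlapped. Its log2 fold change was -0.21 (95% interval -0.30 to -0.12; adjusted p = 0.0331). This call was the least secure of the 9: it was lost when any 1 of 10 libraries was left out, with adjusted p between 0.0061 and 0.262 over the 16 omissions. Those libraries were the Msh3-/- mice male 1, male 3, male 4, female 3 and female 4 and the WT mice male 1, male 2, male 3, female 3 and female 4. The log2 fold change stayed between -0.234 and -0.183 throughout. Map1b was also not called without both Msh3-/- mice that stood apart (adjusted p = 0.138) or without both WT mice of other name prefixes (0.669).

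**Figure D1:**
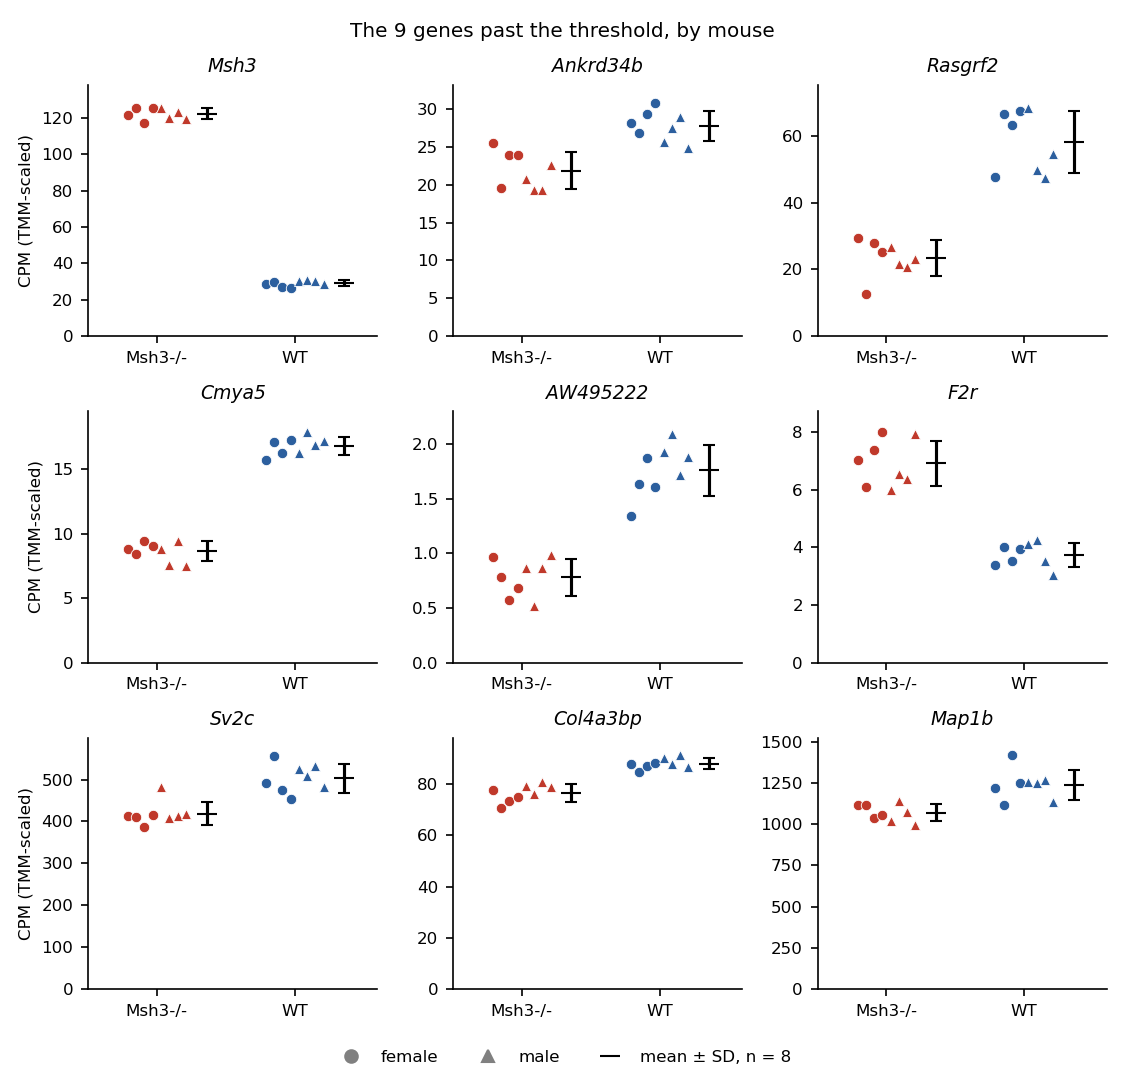
CPM of the 9 called genes in each Msh3-/- mouse (left, red) and each WT mouse (right, blue), with circles for females, triangles for males and black bars for mean ± SD (n = 8 each). In Msh3, Rasgrf2, Cmya5, AW495222, F2r and Col4a3bp the 8 Msh3-/- mice lie wholly above or below the 8 WT mice, while Ankrd34b, Sv2c and Map1b overlap.

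The called genes were close to Msh3. Up to the distance of the farthest of them, Map1b, 81 genes other than Msh3 were tested. These lie on either side of Msh3 and include the 8 other called genes. Of 25 tested genes within 2 Mb of Msh3, 4 were called, of 34 genes between 2 and 5 Mb 3 were called, and of 55 genes between 5 and 10 Mb 1 was called. Beyond that there were 0 calls among 563 genes of chromosome 13, where 8.7% had an unadjusted p under 0.05. Rasgrf2 was the only called gene at lower coordinates than Msh3, and the other 7 lay at higher ones.

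Most neighbours gave no call. Of the 21 tested genes within 2 Mb that were not called, several were abundant and tightly bounded. Ssbp2, a single-stranded DNA binding protein, averaged 104 CPM in both groups, with a log2 fold change of 0.00 (95% interval -0.06 to 0.07). Scamp1, a secretory carrier membrane protein, had -0.01 (-0.08 to 0.06), and Jmy, a p53 cofactor and actin nucleator, had 0.02 (-0.04 to 0.09). Homer1, a postsynaptic scaffold protein, was less tightly bounded at -0.11 (-0.30 to 0.08). Of all 25 tested genes within 2 Mb, called or not, 12 had an interval within 1.2-fold. An unadjusted p under 0.05 (edgeR) was reached by 7 of the 25 (28%), all lower in Msh3-/- mice. Among these were Fam151b at -0.19 (-0.33 to -0.04) and Mtx3 at -0.08 (-0.15 to -0.02), which were not called.

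Of the genes not called on chromosome 13, 3 more are given here, none of them close to the threshold. Papd4, which encodes a cytoplasmic poly(A) polymerase 0.7913 Mb from Msh3, averaged 18.7 ± 1.51 CPM in Msh3-/- mice and 21.5 ± 1.96 CPM in WT mice (log2 fold change -0.20, unadjusted p = 0.000398, adjusted p = 0.604). Iqgap2 and Cartpt, also on chromosome 13 and picked after their values were seen, had log2 fold changes of -0.25 and 0.73 (both adjusted p = 0.810). Iqgap2, a scaffold protein gene of the cytoskeleton, averaged 35.1 ± 3.81 CPM in Msh3-/- mice and 41.7 ± 4.18 CPM in WT mice, and on the Q140 background its log2 fold change was 0.26 (adjusted p = 0.0110), with a difference between backgrounds of 0.51 (adjusted p = 0.00103). Cartpt, a neuropeptide precursor gene, averaged 1.71 ± 0.617 CPM in Msh3-/- mice and 1.03 ± 0.226 CPM in WT mice. Among the called genes Map1b was the nearest to the threshold.

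**Figure D2:**
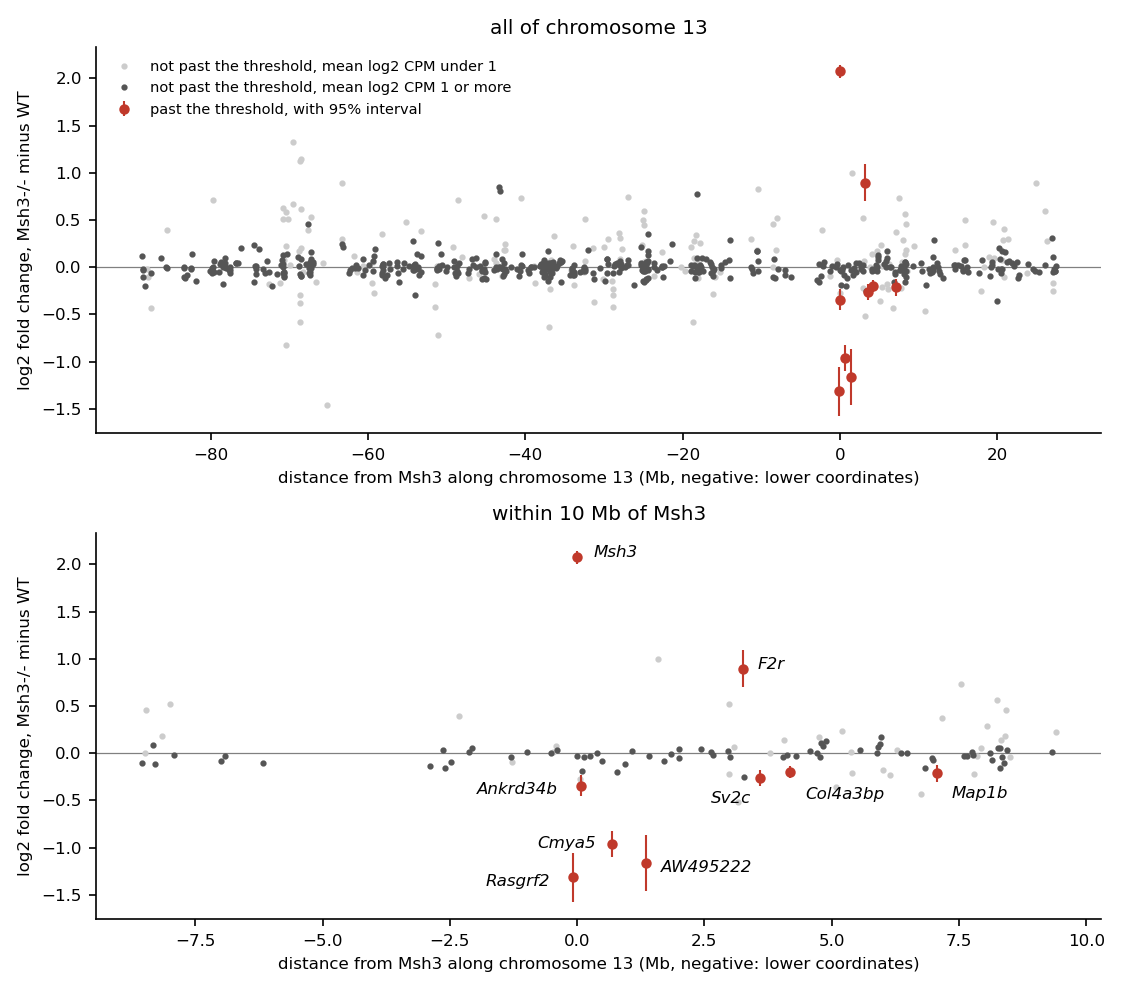
Log2 fold change of Msh3-/- minus WT for the genes tested on chromosome 13 against distance from Msh3 in Mb, for the whole chromosome (top) and within 10 Mb (bottom), with called genes in red with 95% intervals, other genes with a mean log2 CPM of 1 or more in dark grey and lower ones in light grey. The 9 called genes all lie within 7.07 Mb of Msh3, with the largest falls in Rasgrf2, AW495222 and Cmya5.

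Outside chromosome 13 the differences were small for most genes of higher expression, and those of low genes were less well bounded. The smallest adjusted p there was 0.0797, and it was 0.769 when the adjustment ran over those genes alone. Adjusted over all genes, it was 0.515 without the 2 WT mice of other prefixes and 0.141 without the Msh3-/- mice female 1 and male 1. An unadjusted p under 0.05 was reached by 1187 of all 19714 genes (6.02%) and by 1117 of those outside chromosome 13 (5.87%). Of the latter, 631 were higher and 486 lower in Msh3-/- mice, and this split changed with expression. At a mean log2 CPM under 1, 268 were higher and 70 lower. At 1 or more it was 363 higher and 416 lower, and at 5 or more 77 higher and 213 lower. Outside chromosome 13 DESeq2 also called 0 genes and limma-voom called 1, Cacng6. On chromosome 13 the share with an unadjusted p under 0.05 was 10.2%, while the other 18 numbered chromosomes and X had 5.17% to 7.25%. Over all chromosomes, 727 of 19960 genes reached that level without those 2 WT mice, and 766 of 19929 without those 2 Msh3-/- mice.

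How small the differences could be bounded depended on expression. Over the 19026 genes the median size of the log2 fold change was 0.0557, and 57.9%, 77.8% and 91.3% of genes had a 95% interval wholly within 1.2-fold, 1.5-fold and 2-fold of no change. Among the 13400 genes whose mean log2 CPM was 1 or more these shares were 82.1%, 97.9% and 99.4%, and 38 genes had an estimate past 1.5-fold. Among the 5875 genes whose mean log2 CPM was 5 or more, 97.5% were bounded within 1.2-fold and 99.8% within 1.5-fold, and 0 estimates lay past 1.5-fold. Among the 5626 genes whose mean log2 CPM was under 1, 461 had an estimate past 1.5-fold and 30.1% were bounded within 1.5-fold. Below a mean log2 CPM of -1 the counts could not bound most genes. There 2768 genes had intervals with a median half-width of 0.731, and 2.5% were bounded within 1.5-fold. The intervals are per gene and not adjusted for the number of genes.

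The other chromosomes lay close together. The median log2 fold change lay between -0.0143 and 0.0084 on the 19 others compared, and the median size between 0.0459 and 0.0678, against 0.0564 on chromosome 13. These chromosomes held between 513 and 1623 tested genes. Htt, on chromosome 5, stood at 214, 221.5 and 238 CPM in Msh3-/- mice and at 217, 225.5 and 237 CPM in WT mice, a log2 fold change of -0.03 (95% interval -0.10 to 0.04; adjusted p = 0.909).

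**Figure D3:**
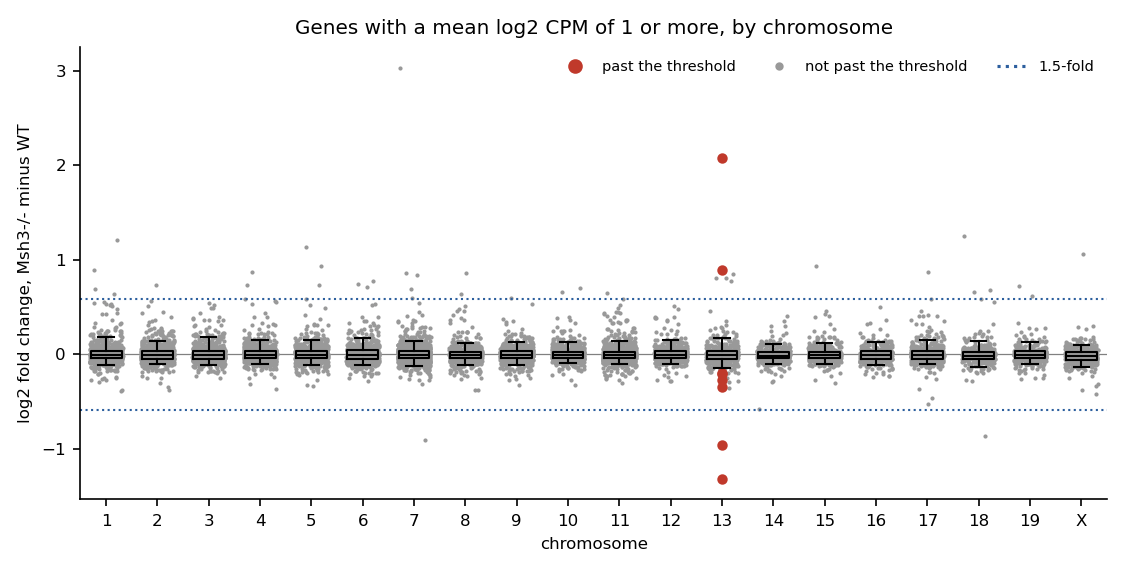
Log2 fold change of Msh3-/- minus WT for genes with a mean log2 CPM of 1 or more by chromosome, with called genes in red, other genes in grey, boxes from the 25th to the 75th percentile, whiskers from the 5th to the 95th and dotted lines at 1.5-fold. The 8 called genes shown sit on chromosome 13, AW495222 being below the expression limit, and the highest grey point is Hbb-bs on chromosome 7 with a log2 fold change of 3.03.

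The 10 genes with the smallest p outside chromosome 13 were Cacng6, Gm38340, Casz1, Gm37271, Gm38043, Gk5, Mrpl50, Taf5, Slc27a2 and Igsf6, and 5 of them had a mean log2 CPM under 1. Cacng6, a calcium channel gamma subunit gene, rested on 55 counts over the 8 Msh3-/- libraries and 15 over the 8 WT libraries (log2 fold change 1.93, 95% interval 0.99 to 2.87; adjusted p = 0.0797). Its CPM ran from 0.0443 to 0.270 in Msh3-/- mice and from 0 to 0.115 in WT mice, so the groups overlapped. It passed the threshold without Msh3-/- male 3 (adjusted p = 0.0188) or without WT male 1 (0.0138). In the other 14 of the 16 omissions of a single library it did not pass, with adjusted p up to 0.365. Without both WT mice of other name prefixes its adjusted p was 0.688. It was not among the genes tested when only the 16 Msh3-/- and WT libraries were fitted. In independent mice on the Q140 background it went the other way, at -0.75 in Q140 x Msh3-/- minus Q140 (adjusted p = 0.134).

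Casz1, a zinc finger transcription factor gene, had the smallest p among those of higher expression, with a mean log2 CPM above 1. It averaged 5.87 ± 0.837 CPM in Msh3-/- mice and 4.67 ± 0.620 CPM in WT mice (log2 fold change 0.33, 95% interval 0.16 to 0.50; adjusted p = 0.547). Without the Msh3-/- mice female 1 and male 1 its log2 fold change was 0.241. The predicted transcript Gm38340 on chromosome 7 stood at 0.127 to 0.405 CPM in Msh3-/- mice and at 0.468 to 1.101 CPM in WT mice, with no overlap. Its log2 fold change was -1.47 (95% interval -2.23 to -0.71; adjusted p = 0.461). It was the 1 gene of the 10 that passed with the same sign in Q140 x Msh3-/- minus Q140 (log2 fold change -1.12, adjusted p = 0.0424). That comparison called 16.3% of all genes tested, in either direction, so 1 of 10 is not above that share. Of the 10, 6 had the opposite sign there. Gm38340 rested on 91 counts over the 8 Msh3-/- libraries and 271 over the 8 WT libraries.

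Ranges of CPM that did not overlap between Msh3-/- and WT mice were found for 10 of 19714 genes (0.0507%). Of these, 6 were on chromosome 13 (0.872% of the genes tested there) and were called. The 4 outside it (0.021%) were Hat1, Gk5, G630030J09Rik and Gm38340, none of which passed in the fit of all 48 libraries. Gm38340 passed when only the 16 Msh3-/- and WT libraries were fitted (adjusted p = 0.0241). Hat1, a histone acetyltransferase gene, stood at 9.80, 10.6 and 11.2 CPM in Msh3-/- mice and at 11.3, 11.65 and 12.5 CPM in WT mice, a log2 fold change of -0.15 (95% interval -0.25 to -0.06; adjusted p = 0.810).

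Among genes outside chromosome 13 with a mean log2 CPM of 1 or more, the 3 largest positive estimates came from few mice. Hbb-bs, an adult beta-globin gene of red blood cells, had a log2 fold change of 3.03 (95% interval 0.59 to 5.48; adjusted p = 0.810). Its CPM was 5.17, 5.12 and 11.1 in the Msh3-/- mice female 1, female 2 and female 4, and from 0.119 to 0.633 in the other 5, while WT female 1 had 1.41 CPM and the other 7 WT mice 0.0167 to 0.3205. The red cell genes Hba-a1, Hba-a2 and Hbb-bt, looked up after the value of Hbb-bs was seen, were highest in the same 3 Msh3-/- mice, with Hba-a1 at 2.21, 1.83 and 3.875 CPM there. At least 1 mouse of each of the other 4 genotypes also had Hbb-bs above 5 CPM, up to 14.5 CPM in Q140 x Msh3+/-. The part of blood RNA in other differences was not tested.

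The long non-coding RNA 1500015A07Rik and D730003I15Rik had log2 fold changes of 1.26 (95% interval 0.21 to 2.30; adjusted p = 0.814) and 1.21 (0.32 to 2.10; adjusted p = 0.810). In the Msh3-/- mice female 1 and male 1 they stood at 39.45 and 40.6 CPM (1500015A07Rik) and at 14.2 and 13.7 CPM (D730003I15Rik), while the other 6 Msh3-/- mice had at most 8.01 and 3.52 CPM. WT mice had at most 7.74 CPM of 1500015A07Rik and 3.22 CPM of D730003I15Rik. Outside these groups 1 mouse of Q140 x Msh3-/- and 1 of Q140 x Msh3+/- had similar levels of 1500015A07Rik, 40.2 and 40.3 CPM. Without those 2 Msh3-/- mice the log2 fold changes were -0.154 and 0.123. At the same expression limit the 3 largest negative estimates were -0.91 in Eps8l1, -0.87 in Ttr, the choroid plexus marker transthyretin, and -0.58 in Gm43305, with adjusted p of 0.810, 0.851 and 0.850.

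The genes that mark striatal neurons differed little. In 20 lists of pathway and cell type genes, chosen with earlier results of these data known, 0 members passed in Msh3-/- minus WT (edgeR). Neither DESeq2 nor limma-voom called a member. The edgeR test called 0.0457% of all genes tested, so 0 calls in lists of this size do not set their members apart. Each list had between 0 and 3 members with an unadjusted p under 0.05, a level that 6.02% of all genes tested reached, and counts this small were not compared with that share. Over all 19714 genes the median log2 fold change was -7e-04 and the median size 0.0557.

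All 28 spiny projection neuron genes were tested, and their median log2 fold change was 0.0114, with a range of -0.056 to 0.066. The 95% interval lay within 1.2-fold for 27 of the 28. Their summed level ran from 26480 to 31500 CPM in Msh3-/- mice and from 27410 to 31220 CPM in WT mice, so striatal neurons were well represented in both groups. Among the indirect pathway genes (6 tested, median -0.0136), the dopamine receptor gene Drd2 averaged 290.35 ± 21.4 CPM in Msh3-/- mice and 298 ± 10.9 CPM in WT mice (log2 fold change -0.04, 95% interval -0.12 to 0.05). Penk, the enkephalin precursor gene, had -0.06 (-0.16 to 0.05). Among the direct pathway genes (8 tested, median 0.0374), Tac1, the substance P precursor gene, had 0.06 (-0.05 to 0.16).

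The rest of the mismatch repair list showed no partner gene past the threshold, with 15 tested and a median of -0.0167. The smallest p of the list belonged to Rfc1 (0.05, 95% interval -0.02 to 0.11), a clamp loader subunit gene, and the largest estimate to the exonuclease gene Exo1 (0.30, -0.22 to 0.83), which is low in the striatum at 0.568 CPM in Msh3-/- mice and 0.458 CPM in WT mice. The repair genes Pms1 and Pms2 had -0.09 (-0.27 to 0.09) and -0.04 (-0.12 to 0.04). The DNA damage response and p53 list (19 tested, median -0.0042) had 2 members with an unadjusted p under 0.05, the checkpoint kinase gene Atr (0.10, 0.01 to 0.19) and the p53 ubiquitin ligase gene Mdm2 (0.08, 0.01 to 0.16). In the base and nucleotide excision repair list (21 tested, median 0.0276) it was 1, the nuclease gene Ercc4 (-0.09, -0.16 to -0.01). The interferon list (13 tested, median -0.0295) had 2, Irf9 (0.14, 0.01 to 0.28) and Stat2 (0.10, 0.01 to 0.20), which encode partners in one transcription factor complex.

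Activity-dependent genes varied widely between mice. The 14 immediate early genes had a median log2 fold change of 0.237, with 0 at an unadjusted p under 0.05. Arc, a synaptic activity gene, ran from 109 to 227 CPM in Msh3-/- mice and from 55.5 to 216 CPM in WT mice, overlapping widely (log2 fold change 0.42, 95% interval -0.14 to 0.99). The 12 heat shock genes had a median of -0.0308 and the 20 glutamate, GABA and potassium channel genes -0.0217. The 16 genes that Q140 changes most, a list taken from earlier results of this series, had a median of 0.0209, and 1 of them was past 1.5-fold. That gene, Onecut1, rested on 30 counts in Msh3-/- libraries and 7 in WT libraries.

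Markers of other cell types gave medians from -0.0765 to 0.041. Mature oligodendrocyte markers had a median of -0.0467 (13 tested, 13 within 1.2-fold), astrocyte markers -0.0305 (12 tested) and microglia markers -0.0388 (12 tested). Oligodendrocyte precursor markers had -0.0765 (10 tested), with Olig2, a lineage transcription factor gene, at -0.18 (95% interval -0.30 to -0.07; unadjusted p = 0.00279, adjusted p = 0.810). Endothelial and mural markers had -0.0536 (12 tested) and interneuron markers -0.0565 (12 tested), with Th, the tyrosine hydroxylase gene, at -0.27 (-0.45 to -0.09; unadjusted p = 0.00482, adjusted p = 0.810). Choroid plexus and ependymal markers had 0.041 (9 tested), cortical neuron markers 0.0073 (9 tested) and thalamic, hypothalamic and septal markers -0.06 (5 tested). In bulk tissue fewer cells of a type and less RNA per cell cannot be told apart.

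**Figure D4:**
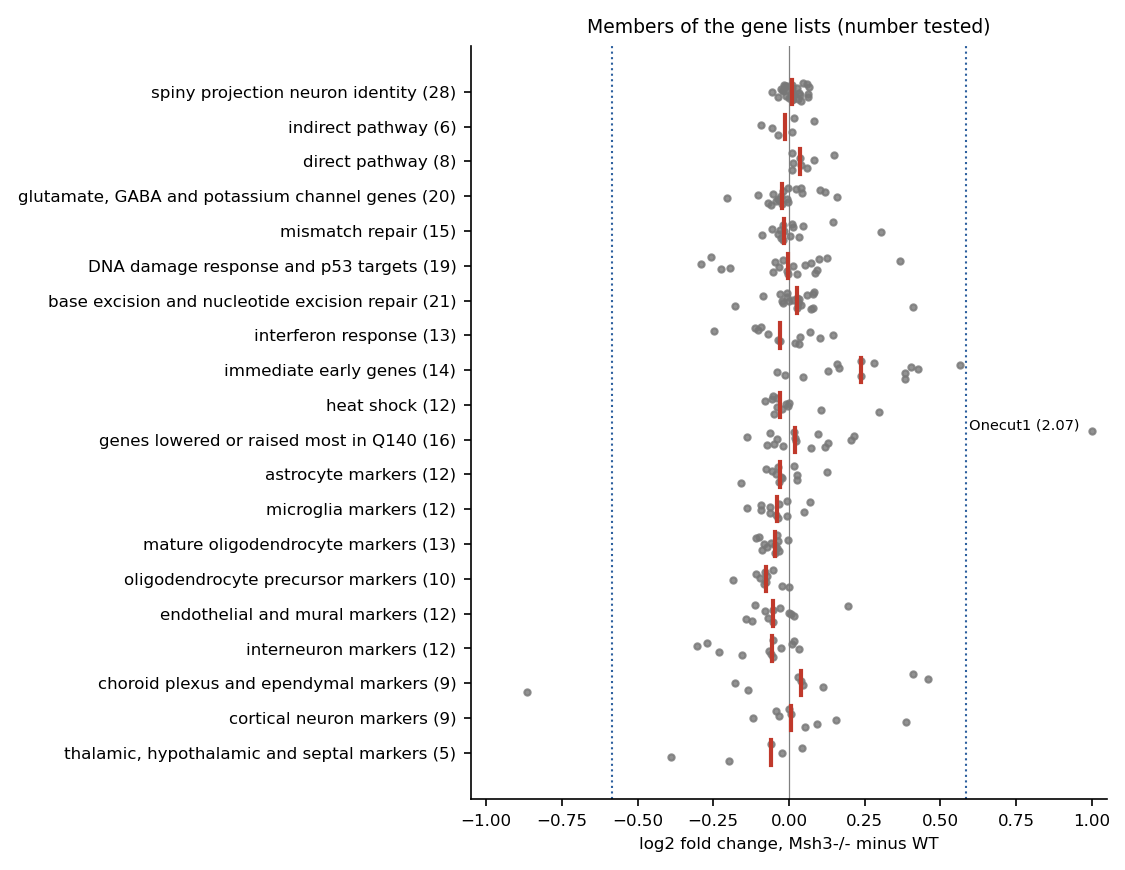
Log2 fold change of Msh3-/- minus WT for each tested member of the 20 gene lists (grey points), with each list's median in red and dotted lines at 1.5-fold; Onecut1, at 2.07, is drawn at the right edge. The medians lie between -0.0765 and 0.041 except for the immediate early genes at 0.237.

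The same Msh3 genotypes on the Q140 background gave a comparison in other mice, since Q140 x Msh3-/- minus Q140 shares no mouse with Msh3-/- minus WT. All 9 genes had the same sign there, 7 of them at a smaller size, and all passed the threshold, in a comparison that called 3217 of 19714 genes (16.3%). Without Q140 female 1 the threshold was passed by 8 of the 9, Ankrd34b having an adjusted p of 0.116 in place of 0.0497. Msh3 averaged 116 ± 7.78 CPM in Q140 x Msh3-/- mice and 30.5 ± 1.19 CPM in Q140 mice (SD, n = 8 each; log2 fold change 1.92 ± 0.0342 SE). Cmya5 averaged 8.25 ± 0.821 CPM in Q140 x Msh3-/- mice and 13.2 ± 0.706 CPM in Q140 mice (-0.68 ± 0.0687 SE). F2r averaged 6.15 ± 0.937 CPM in Q140 x Msh3-/- mice and 4.05 ± 0.716 CPM in Q140 mice (0.60 ± 0.0964 SE).

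The size differed between backgrounds for 2 of the 9 genes, by the test of the difference itself, which called 1213 of all genes tested (6.15%). The 9 genes were picked by Msh3-/- minus WT, the term subtracted, and that choice alone favours a smaller size on the Q140 background. The 2 of 9 therefore cannot be read against the share over all genes. Rasgrf2 fell less on the Q140 background, to 28.2 ± 2.99 CPM in Q140 x Msh3-/- mice against 42.9 ± 5.24 CPM in Q140 mice (log2 fold change -0.60 ± 0.127 SE), and the difference from Msh3-/- minus WT was 0.71 ± 0.180 SE (adjusted p = 0.0101). Msh3 rose slightly less, by a difference of -0.16 ± 0.0485 SE (adjusted p = 0.0395), which without Q140 female 1 was -0.15 and did not pass (adjusted p = 0.0573). For Cmya5 the difference was 0.28 ± 0.0970 SE (adjusted p = 0.0738), for AW495222 -0.35 ± 0.203 SE (0.355) and for Ankrd34b 0.19 ± 0.0782 SE (0.144). Col4a3bp, Sv2c and Map1b had log2 fold changes of -0.23, -0.23 and -0.16 in Q140 x Msh3-/- minus Q140, beside -0.20, -0.27 and -0.21 in Msh3-/- minus WT. AW495222 had -1.52 on the Q140 background and Ankrd34b -0.15.

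Beside Msh3-/- minus WT stands Msh3+/- minus WT, which uses the same 8 WT mice, so the 2 comparisons are not independent. It called 2 of 19714 genes (0.0101%), Msh3 and F2r. Msh3 had a log2 fold change of 2.08 in Msh3-/- minus WT and 1.35 ± 0.0346 SE in Msh3+/- minus WT, and F2r 0.89 and 0.52 ± 0.0979 SE (adjusted p = 0.0219). Rasgrf2 had -1.31 and -0.57 ± 0.125 SE (adjusted p = 0.186), Cmya5 -0.96 and -0.32 ± 0.0670 SE (0.107) and AW495222 -1.17 and -0.47 ± 0.141 SE (0.981). Ankrd34b had -0.34 and -0.17, Sv2c -0.27 and -0.14, Col4a3bp -0.20 and -0.08, and Map1b -0.21 and -0.11.

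**Figure D5:**
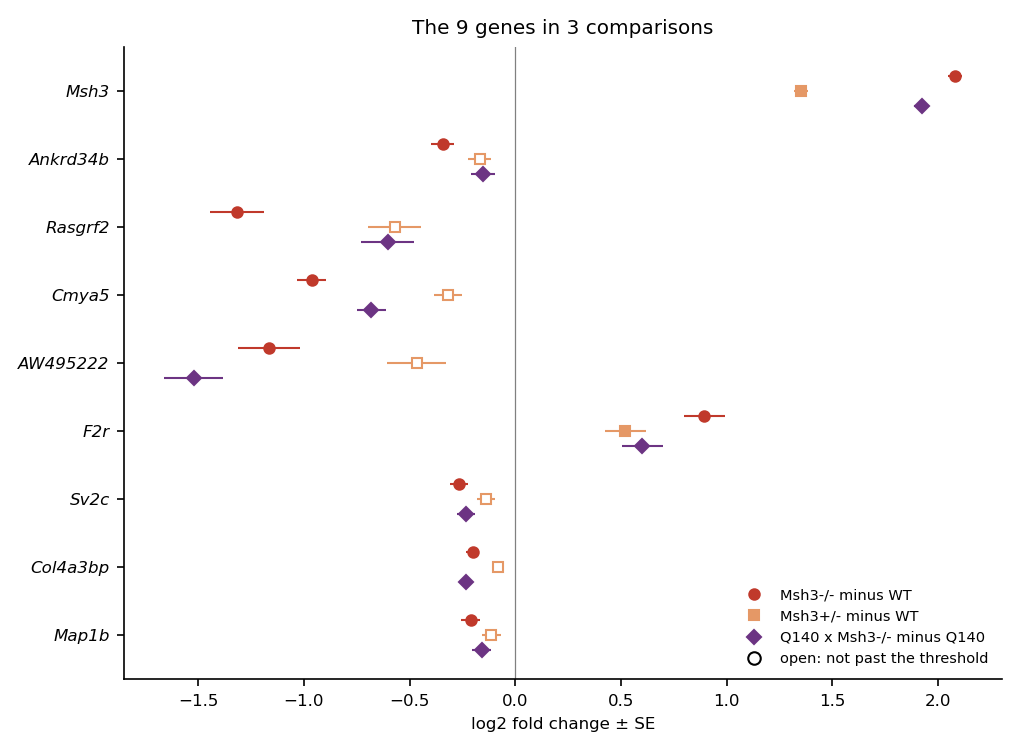
Log2 fold change ± SE of the 9 genes in Msh3-/- minus WT (red circles), Msh3+/- minus WT (orange squares, with the same WT mice) and Q140 x Msh3-/- minus Q140 (purple diamonds, other mice), with open symbols where the threshold was not passed. Every red circle and purple diamond is filled, and among the orange squares Msh3 and F2r are filled.

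Each sex had 4 mice per genotype, and no gene's effect passed as different between them. The male minus female difference of the Msh3-/- effect called 0 of 19714 genes (0%; edgeR, smallest adjusted p = 0.9991), with 668 at an unadjusted p under 0.05 (3.39%), and DESeq2 and limma-voom called 0 as well. Msh3 had a log2 fold change of 2.02 ± 0.0452 SE in males and 2.14 ± 0.0453 SE in females, a difference of -0.11 ± 0.0640 SE. Rasgrf2 had -1.26 ± 0.188 SE in males and -1.36 ± 0.187 SE in females, and Cmya5 -1.03 ± 0.0952 SE in males and -0.89 ± 0.0947 SE in females. Tested by sex, 6 genes passed in males (0.0304%) and 6 in females (0.0304%). Ankrd34b was among them in males and Col4a3bp in females, and Msh3, Rasgrf2, Cmya5, F2r and AW495222 in both.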

How the data were processed

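Striatal RNA of 48 mice was sequenced from stranded TruSeq libraries, per the labels' protocols. The authors deposited whole-number counts per gene, not normalized, for 48795 genes, and an FPKM table. Each deposited FPKM was divided by its count and multiplied by the library's total count. This gave 1 constant for each of the 19144 genes with counts in every library (largest relative deviation 4.0e-07). The counts were therefore tested, and FPKM only compare levels per length. Reads were handled with HTSeq 0.12.3, SAMtools 1.10 and STAR 2.7.5c on GRCm38 (mm10), per the submitters' processing notes; the sources used here do not state the annotation release or strand setting. Coordinates come from GENCODE M21, which held 48349 of the identifiers, and 27 symbols turned into dates were restored from them.

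Genes passing edgeR's filterByExpr (minimum count 10; 29081 left out) entered edgeR 4.0.16 (R 4.3.3) with TMM scaling, a robust quasi-likelihood F-test, 1 fit of the 48 libraries with genotype and sex (41 residual degrees of freedom), Benjamini-Hochberg adjustment over all genes tested, threshold 0.05. Intervals are 95% per gene from that fit, which was tested on simulated data. The sex difference came from a fit with a term per genotype and sex. Library values were compared by 2-sided exact permutation (SciPy 1.17.1). Alternatives used DESeq2 1.42.0, limma 3.58.1 (voom), other scalings, filters, terms and sample sets.

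Groups come from the genotype labels. Nothing beyond the titles pairs mice of equal number across genotypes: correlations of residuals of equally numbered Msh3-/- and WT mice ran from -0.142 to 0.145, so the numbers were not taken as pairs. The named genes were Msh3 and Htt, all called genes, all tested genes within 2 Mb of Msh3, the 10 smallest p and the 3 largest changes each way (mean log2 CPM of at least 1) outside chromosome 13, and up to 4 members per list; of these the text gives those its comparisons turn on, and some items are not reported here. The groups, gene lists and rule were chosen with earlier results of these data known. Each library is a separate mouse by its label. Intervals cover the spread between mice, and depth limits the precision of low genes.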

Additional observations from a re-analysis of the deposited data

Results flagged for a closer look

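Among 62 sets of 8 mice examined, 6 held a mouse far from the others of its genotype, where chance flags about 1 in 20 unselected sets. The sets include genes picked for large estimates or small p in these same mice, so the 6 cannot be read against that rate. In Msh3-/- mice, male 1 was highest for Sv2c, at 482 CPM, and for Gm37271, at 0.937 CPM, male 3 was highest for Htt, at 238 CPM, male 4 for Ttr, at 29.9 CPM, and female 4 for Hbb-bs, at 11.1 CPM. In WT mice, female 1 was highest for Hbb-bs, at 1.41 CPM.

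The effect of Msh3-/- differed between the Q140 and the WT background, by the edgeR test of the difference itself, for 6 of 19 effects compared, where the same test called 6.15% of all genes tested. Written as (Q140 x Msh3-/- minus Q140) minus (Msh3-/- minus WT) on the log2 scale, the difference was 0.71 in Rasgrf2 (adjusted p = 0.0101) and -0.16 in Msh3 (adjusted p = 0.0395). It was -2.68 in Cacng6 (adjusted p = 0.000871), -0.65 in Gk5 (0.00435), -0.35 in Taf5 (0.0394) and -0.34 in Slc27a2 (0.0273). The last 4 are genes outside chromosome 13 picked for their small p in Msh3-/- minus WT, and none passed the threshold in that comparison. Since Msh3-/- minus WT is the term subtracted, that choice alone moves their difference away from 0, and the share of 6 in 19 cannot be read against the share over all genes. Without Q140 female 1 the difference in Msh3 did not pass (-0.15, adjusted p = 0.0573) and the other 5 did.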

How the results depend on the processing

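Of the 9 genes called, DESeq2, other scalings (RLE size factors, total counts), other filters on low counts (none, or a mean of at least 1 CPM) and the replicate block (8 blocks of sex and replicate number; 9 called, 9 on chromosome 13) called the same 9. The equal numbers are no pairs of the design, and 2 of 8 Msh3-/- mice correlated best with the WT mouse of their own number. No sex term, the name prefix as a term and leaving out the 2 WT mice of other prefixes lost Map1b and kept the other 8, as did leaving out the 2 Msh3-/- mice apart on the residual component, an alternative chosen after seeing the data. Males alone gave 6 genes and females alone 5, all on chromosome 13; Col4a3bp, Map1b and Sv2c were lost in both, and Ankrd34b in females. Leaving out each library gave 8 to 9 called, 8 to 9 on chromosome 13 and 0 to 1 outside it. Outside chromosome 13 the count was 1 in the 16 libraries alone (Gm38340, adjusted p = 0.0241; Map1b was lost there), with plate column as a term (Cacng6, 0.0272) and with limma-voom (Cacng6, 0.0464). Genes outside chromosome 13 bounded within 1.5-fold numbered 14809, and between 13247 (females alone) and 14859 (limma-voom) otherwise. Genes that also pass in Msh3+/- minus WT, which shares the WT mice, numbered 2, and 4 with DESeq2 and 4 with limma-voom. Without Q140 female 1, low in Xist and Ddx3y and left out after seeing the data, the same 9 genes were called, and 8 of them in Q140 x Msh3-/- minus Q140. No alternative reversed a called gene. The sex difference without a sex term could not be fitted. The cause of these moves was not tested.

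The limits are depth for low genes, 8 mice per genotype, an uncertain age, an allele whose structure is not given in the sources used here, counting whose strand setting is unknown, and counts over whole genes, which cannot show exons. Flanking sequence carried with the null allele and loss of Msh3 cannot be told apart in this design.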
